A study of Mus musculus with 8 samples.

Results

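Ischemia-reperfusion injury (IRI) was compared with no injury in the liver of Rag1-/- mice on a normal diet (ND), for all 84 cytokine and chemokine genes of a quantitative PCR array. The comparison used 2 of the 8 pools of the series, labelled ND Rag1-KO IRI and ND Rag1-KO non-IRI. Both pools came from mice without functional Rag1, which lack T and B cells and keep type 1 innate lymphoid cells (ILC1s) and conventional NK cells, and both had been fed standard chow from week 4 of life for 12 to 15 weeks. In the IRI mice, part of the liver was made ischemic for 45 minutes at body temperature and reperfused for 24 hours, whereas control mice were anesthetized and opened by midline laparotomy. The age of the mice behind the array and the background strain of the Rag1-/- line were not given in the sources used here. Total RNA of at least 3 livers had been pooled in equal parts for each condition, and each gene was read in 1 well of each pool, so that no error between animals can be given and no test was run. The methods state that the left lobe was collected from IRI mice and the entire liver from controls. Injury and the part of the liver sampled therefore cannot be told apart.

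In hepatic IRI, the return of blood to ischemic tissue activates Kupffer cells and endothelium, which release cytokines and chemokines that draw neutrophils first and monocytes later. ILC1s and NK cells are activated by cytokines such as IL-15 and release IFN-γ, TNF-α and GM-CSF, and they carry death ligands such as TRAIL and Fas ligand. Cytokines of the gp130 family and the BMP and TGF-β families act on hepatocytes and stroma during repair.

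The measured value was the threshold cycle (Ct), the cycle at which the product is detected, so that 1 cycle earlier stands for roughly 2-fold more transcript. Each Ct was set against *Actb*, *Hsp90ab1* and *Gapdh*, averaged (ΔCt), and the log2 fold was the negative difference of the ΔCt values (-ΔΔCt), positive where IRI liver had the higher level. The mean Ct of these 3 references was 15.68 in both pools, so that each log2 fold equals the difference of the raw Ct values. Their own log2 folds were -0.18 (*Actb*), -0.28 (*Hsp90ab1*) and 0.46 (*Gapdh*), with a standard deviation of 0.40. That spread is a technical yardstick over 3 housekeeping genes and not an error between mice. The other housekeeping genes, *B2m* and *Gusb*, had log2 folds of 0.34 and 0.49. The highest Ct in the table was 35, which was taken as the limit of detection. At that limit were 15 of the 84 genes in the non-IRI pool and 10 in the IRI pool. Where 1 of the wells was at 35, the fold is a bound ("at least"), and where both were, none is given. The hepatocyte product *Hc*, complement C5, had a Ct of 16.74 without and 15.78 with IRI, and the hepatocyte hormone thrombopoietin (*Thpo*) 22.23 and 21.81. *Adipoq*, the adipocyte hormone adiponectin, was at the limit in both pools. Rag1 is not among the genes of the array, so the genotype could not be checked from these values.

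More genes were higher than lower after IRI, except with *Nodal*, *Il9* and *Csf1* as references. Of the 75 genes with a fold or a bound, 29 (38.7%) were at least 2-fold higher and 6 (8.00%) at least 2-fold lower. The genes at least 2-fold higher comprised 23 with a Ct below 35 in both pools and 6 with only a bound. Those at least 2-fold lower were *Ccl2*, *Cxcl10*, *Il1b*, *Lif* and *Tgfb2*, together with *Il27*, which has only a bound. Among the 40 genes between these thresholds, 32 had a log2 fold above 0 and 8 below. The median log2 fold over the 75 genes was 0.77, or 1.71-fold, and the middle of the distribution lay between 0.13 and 1.41 (quartiles). The 9 genes at the limit in both pools were *Adipoq*, *Cxcl3*, *Il3*, *Il12a*, *Il17a*, *Il21*, *Il22*, *Il24* and *Mstn*. In bulk liver, a difference in the number of cells that make a transcript and a difference in RNA per cell cannot be told apart.

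The counts depended on the reference genes, since another reference adds a constant to every log2 fold. Genes higher and lower numbered 38 and 4 without *Gapdh*, 18 and 8 with *B2m* and *Gusb*, 14 and 10 with the median Ct of the 68 genes detected in both pools as reference, and 8 and 22 with *Nodal*, *Il9* and *Csf1*, the references the methods name for the other genotype of the series. Under the references used here and all 8 alternatives, *Csf2*, *Ccl12*, *Ifna2*, *Tnfsf11*, *Cd40lg*, *Ccl1*, *Il2* and *Cd70* were at least 2-fold higher. *Ccl2*, *Cxcl10*, *Lif* and *Il27* were at least 2-fold lower under all of them. Raw Ct is 1 of the 8 and gives the same folds here by construction. With the detection limit at Ct 32 in place of 35, however, *Ccl1* and *Cd40lg* fell short of 2-fold, *Il2* and *Cd70* had no fold, and the bounds were log2 folds of 3.36 for *Ifna2*, 2.81 for *Tnfsf11* and -1.48 for *Il27*. *Ccl4*, *Cxcl12*, *Cxcl13*, *Spp1*, *Tnf* and *Tnfsf13b* had log2 folds below 0 with *Nodal*, *Il9* and *Csf1*. Under the references used here, *Nodal* (1.79) and *Il9* (1.68) were themselves at least 2-fold higher and *Csf1* (0.22) was not. Taking these genes as references shifts each log2 fold by -1.23. The order of the genes by log2 fold is the same under every reference.

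**Figure D1:**
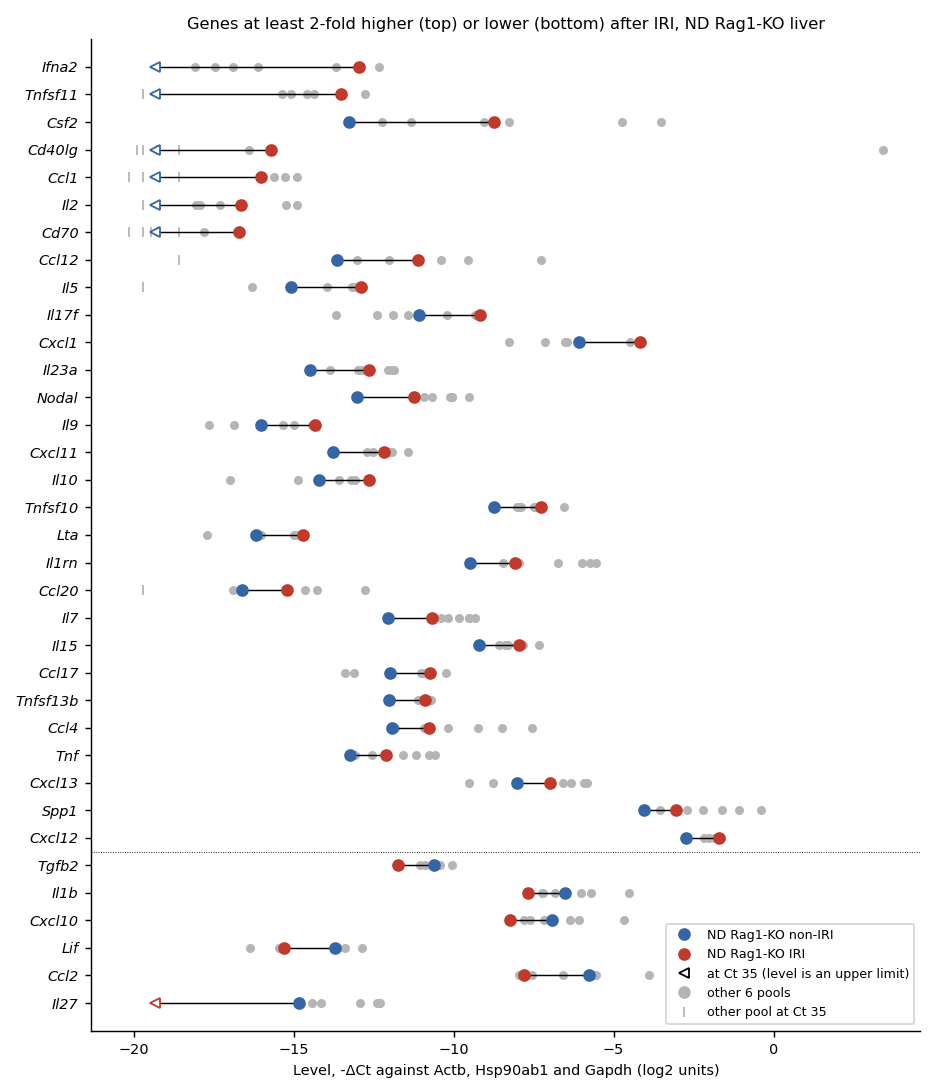
Level of the 35 genes at least 2-fold higher (above the dotted line) or lower (below it) after IRI, as -ΔCt against *Actb*, *Hsp90ab1* and *Gapdh*, in log2 units and with 1 well per gene and pool. Blue marks ND Rag1-KO non-IRI, red ND Rag1-KO IRI, grey the other 6 pools, and open triangles and grey ticks mark wells at Ct 35, where the level is an upper limit; the log2 fold runs from 6.36 or more (*Ifna2*) to -4.48 or less (*Il27*).

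Promoter sequences were looked up in a RefSeq table of GRCm38.p6, which held 21 of the 29 genes at least 2-fold higher and 4 of the 6 at least 2-fold lower. They were searched on both strands for short motifs of factors known to act on cytokine genes. The NF-κB motif GGNNTTTCC was present in 6 of 25 promoters of the higher genes, from *Csf2*, *Ccl20*, *Cxcl1*, *Il1rn* and *Il9*, of which *Il1rn* has overlapping promoters that share a match. It was present in 1 of 4 promoters of the lower genes (*Cxcl10*), in 6 of 35 (17.1%) of the genes between the thresholds, and in 5.82% of the 32851 promoters of the same length in the table. The array is made of cytokine genes, and over all of its 73 promoters the share was 20.5%. A second form of the NF-κB motif, GGGNNTTCC, which can overlap the first, was found in 1 of 25 promoters of the higher genes (*Ccl20*), 1 of 4 of the lower (*Cxcl10*) and 5.82% of all. The interferon-stimulated response element GAAANNGAA was found in 5 of 25 promoters of the higher genes (*Ccl1*, *Csf2*, *Ifna2*, *Spp1* and *Tnfsf13b*), in 1 of 4 of the lower genes (*Cxcl10*), in 16.4% of the array and in 8.56% of all. The AP-1 motif TGANTCA was found in 4 of 25 promoters of the higher genes, 2 of 4 of the lower (*Cxcl10* and *Lif*), 20.5% of the array and 7.81% of all. Among the higher genes, overlapping promoters of *Tnfsf13b* share an AP-1 match. The STAT motif TTCNNNGAA was found in 2 of 25 of the higher, 0 of 4 of the lower and 8.30% of all, and the hypoxia response element core ACGTG in 3 of 25, 1 of 4 and 19.6%. A match describes the letters only, and no binding was measured. The 250 bases before the start site are shown, 5′ to 3′ with matches to any of these motifs in capitals, for genes with matches among the higher (*Cxcl1*, *Ccl20*, *Ifna2* and *Csf2*) and the lower (*Cxcl10*). *Cxcl1* lies at chr5:90890995-90891244 (plus strand) and holds 2 NF-κB matches and 1 of the hypoxia core. *Ccl20* lies at chr1:83116516-83116765 (plus), where both forms of the NF-κB motif match the same bases. *Ifna2* lies at chr4:88683780-88684029 (minus) with 2 interferon-stimulated response elements. *Csf2*, which had the largest measured fold, lies at chr11:54249900-54250149 (minus) with 1 interferon-stimulated response element. Its NF-κB match lies after the start site (23 to 31). It is outside the stretch shown, since the promoters searched reach past the start site. *Cxcl10*, which was lower after IRI, lies at chr5:92348890-92349139 (minus) with both forms of the NF-κB motif, 1 interferon-stimulated response element and 1 AP-1 motif.
Cxcl1: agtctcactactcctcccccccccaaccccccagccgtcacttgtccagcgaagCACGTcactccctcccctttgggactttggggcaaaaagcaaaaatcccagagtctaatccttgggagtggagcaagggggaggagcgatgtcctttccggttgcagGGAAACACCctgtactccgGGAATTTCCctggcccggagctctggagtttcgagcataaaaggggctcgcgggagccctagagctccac
Ccl20: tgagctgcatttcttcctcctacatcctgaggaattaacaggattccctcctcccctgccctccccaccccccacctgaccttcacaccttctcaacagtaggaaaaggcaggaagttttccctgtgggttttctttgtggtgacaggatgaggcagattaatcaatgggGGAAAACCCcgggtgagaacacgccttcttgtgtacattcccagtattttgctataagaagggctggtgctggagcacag
Ifna2: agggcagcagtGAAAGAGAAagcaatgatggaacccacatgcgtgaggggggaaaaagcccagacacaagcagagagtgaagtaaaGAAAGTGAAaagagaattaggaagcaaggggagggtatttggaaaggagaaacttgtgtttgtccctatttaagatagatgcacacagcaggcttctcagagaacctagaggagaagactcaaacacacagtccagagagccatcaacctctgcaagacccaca
Csf2: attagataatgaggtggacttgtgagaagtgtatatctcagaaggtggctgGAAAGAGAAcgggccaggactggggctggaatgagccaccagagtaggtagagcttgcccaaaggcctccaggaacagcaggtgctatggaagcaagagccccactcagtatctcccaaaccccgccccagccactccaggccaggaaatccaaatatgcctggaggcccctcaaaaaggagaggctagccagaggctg
Cxcl10: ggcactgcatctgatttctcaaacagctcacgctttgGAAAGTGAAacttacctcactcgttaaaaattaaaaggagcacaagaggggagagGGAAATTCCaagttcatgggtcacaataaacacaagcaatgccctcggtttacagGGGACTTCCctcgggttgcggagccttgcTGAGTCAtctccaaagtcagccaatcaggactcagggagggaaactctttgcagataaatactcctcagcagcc
Genes higher and lower after IRI thus both included promoters with NF-κB and interferon motifs.

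Among chemokines that act on neutrophils, *Cxcl1* was higher. *Cxcl1* encodes a ligand of CXCR2 that liver cells release soon after injury, and its Ct was 21.76 without and 19.85 with IRI, a 3.76-fold higher level. No other of the 8 pools had a lower Ct of *Cxcl1*, and the other 6 pools ranged from 20.92 to 23.54. *Cxcl5*, another CXCR2 ligand, was 1.88-fold higher (Ct 30.33 and 29.42). *Csf3*, the gene for G-CSF, was 1.38-fold lower (31.87 and 32.33). *Cxcl3* was at the limit in both pools, although its Ct in the other 6 pools was between 21.7 and 31.63. Of this family of 4 genes, 1 was therefore at least 2-fold higher, beside 38.7% of all genes, and *Cxcl1* alone accounts for it.

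The ligands of CCR2, the receptor that brings monocytes into injured tissue, went in opposite directions. *Ccl2*, which encodes MCP-1, had a Ct of 21.43 without IRI and 23.48 with IRI and was 4.14-fold lower. *Ccl12*, which encodes MCP-5, had 29.31 and 26.8 and was 5.70-fold higher. *Ccl7*, which encodes MCP-3, was 1.51-fold lower, with 25.18 and 25.77. The higher ligand was thus the one detected latest without injury and the lower ligand the one detected earliest, although Ct values of different assays do not rank abundance. *Cx3cl1*, the gene for the CX3CR1 ligand fractalkine (1.07-fold lower), and *Csf1*, which sustains macrophages (1.16-fold higher), were close to unchanged Ct values. The median log2 fold of these 5 genes was -0.10, the lowest of the 16 families examined and below the 0.77 of all 75 genes.

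Of the ligands of CXCR3, which IFN-γ induces and which attract NK cells and T cells, *Cxcl10* was lower and *Cxcl11* higher. *Cxcl10* had a Ct of 22.59 without and 23.91 with IRI, a 2.50-fold lower level. *Cxcl11* had 29.45 and 27.84, a 3.05-fold higher level. *Cxcl9* was 1.61-fold lower (26.67 and 27.36). The 3 ligands of this receptor thus did not move as a group. Their inducer *Ifng* had a Ct of 31.19 without and 30.62 with IRI, 1.48-fold higher. *Ifna2*, a type I interferon gene, was at the limit without IRI and had a Ct of 28.64 with IRI, at least 82.1-fold higher and the largest bound of the array. It is a member of a family of near-identical intronless genes, which a PCR assay may not separate. The Ct of *Ifna2* was below 35 in all of the other 6 pools, between 28.74 and 33.8, so that the bound rests on the well of the non-IRI pool.

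Of 3 chemokines for CCR4 and CCR8, receptors of Th2 cells, regulatory T cells and type 2 innate cells, 2 were at least 2-fold higher. The share over all genes was 38.7%. *Ccl1* counts only through detection in the IRI pool, so that no median is given. *Ccl17* (TARC) had a Ct of 27.65 without and 26.41 with IRI and was 2.36-fold higher. *Ccl22* (MDC), which binds the same receptor, was 1.29-fold higher (28.65 and 28.28). *Ccl1*, the ligand of CCR8, was at the limit without IRI and at 31.69 with IRI, at least 9.92-fold higher, but with a detection limit of Ct 32 its bound was a log2 fold of 0.31, short of 2-fold. Of the eosinophil chemokines, *Ccl11* (eotaxin-1) was 1.72-fold higher and *Ccl24* (eotaxin-2) 1.03-fold lower.

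The IL-1 family showed a lower agonist and a higher antagonist. *Il1b*, the gene for the IL-1β that macrophages and neutrophils release, had a Ct of 22.18 without and 23.34 with IRI and was 2.23-fold lower. *Il1rn*, which encodes the IL-1 receptor antagonist, had 25.17 and 23.76 and was 2.66-fold higher. *Il1a* was 1.31-fold higher (22.72 and 22.33). Without *Gapdh* among the references, *Il1b* stood at a log2 fold of -0.93, short of 2-fold. *Il1rn* fell short of it with *B2m* and *Gusb* (0.995), with the median Ct (0.76) and with *Nodal*, *Il9* and *Csf1* (0.18).

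Among the IL-12 family, IL-15 and IL-18, which act on ILC1s and NK cells, 5 genes had a fold. Of these, 2 were at least 2-fold higher, 1 lower and 2 between, beside 38.7% higher and 8.00% lower over all genes. Their median log2 fold was 0.62, against 0.77 over all genes, but it includes *Il27*, which has only a bound from 1 well. The genes detected in both pools had log2 folds of 0.14 (*Il12b*), 0.62 (*Il18*), 1.25 (*Il15*) and 1.84 (*Il23a*). The median of all array genes so detected was 0.74. *Il15*, which sustains ILC1s and NK cells, had a Ct of 24.88 without and 23.63 with IRI and was 2.38-fold higher. *Il23a*, the p19 subunit of IL-23, had 30.16 and 28.32 and was 3.58-fold higher. Its partner *Il12b*, the p40 subunit of IL-12 and IL-23, was at 29.39 and 29.25. *Il12a*, the p35 subunit of IL-12, was at the limit in both pools, and *Il18* was 1.54-fold higher (21.35 and 20.73). *Il27*, the p28 subunit of IL-27, had a Ct of 30.52 without IRI and was at the limit with IRI, at least 22.3-fold lower. In the other 6 pools *Il27* was detected between 27.4 and 29.42, and the ND Rag1-KO IRI well was the only 1 of 8 at the limit.

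Of the gp130 cytokines, which drive the acute phase response and hepatocyte regeneration, none of 6 was at least 2-fold higher and 1 was lower. Over all genes the shares were 38.7% higher and 8.00% lower. *Lif* had a Ct of 29.38 without and 30.99 with IRI, a 3.05-fold lower level. *Il6*, the main inducer of the acute phase response in hepatocytes, was 1.66-fold higher (29.49 and 28.76), and *Cntf* was 1.97-fold higher (25.32 and 24.34). *Ctf1* was 1.40-fold higher, *Il11* 1.02-fold lower and *Osm* 1.18-fold lower. The median log2 fold was 0.23.

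Each of the 3 detected genes of the IL-17 and IL-10 families with *Ccl20* was at least 2-fold higher, beside 38.7% of all genes. *Il17f*, made by Th17 cells, γδ T cells and ILC3s, had a Ct of 26.75 without and 24.84 with IRI and was 3.76-fold higher. The assay for *Il17a*, its nearest paralog, was at the limit in both pools. *Il10*, an anti-inflammatory cytokine of macrophages and lymphocytes, had 29.88 and 28.33 and was 2.93-fold higher. *Ccl20*, the ligand of CCR6, had 32.3 and 30.89 and was 2.66-fold higher. *Il22* and *Il24* were at the limit in both pools.

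Among cytokines and ligands of activated lymphocytes, 4 of 6 genes had a fold, and 3 of these only through detection in the IRI pool, so that no median is given. *Csf2*, which encodes GM-CSF, a growth factor for neutrophils and macrophages, had a Ct of 28.94 without and 24.41 with IRI and was 23.1-fold higher, the largest difference among genes detected in both pools. *Il2*, *Cd40lg* and *Cd70* were at the limit without IRI and were detected late with IRI. *Cd40lg*, which encodes the ligand of CD40, had a Ct of 31.37 with IRI and was at least 12.4-fold higher. The growth factor gene *Il2* had 32.33 and was at least 6.36-fold higher, and *Cd70*, the ligand of CD27, had 32.37 and was at least 6.19-fold higher. With a detection limit of Ct 32, *Il2* and *Cd70* had no fold and *Cd40lg* had a log2 fold of at least 0.63, short of 2-fold. *Il3* and *Il21* were at the limit in both pools. Products of T and B cells thus included genes that were detected in these T- and B-cell-free livers. Of the 7 such genes listed (*Cd40lg*, *Il2*, *Il21*, *Il17a*, *Il4*, *Lta* and *Ltb*), 3 were below the limit without IRI and 5 with IRI. Their summed level was 0.204 per 1000 of the reference level without and 0.288 with IRI. *Ltb* was the largest part (0.160 and 0.165), and *Cd40lg* and *Il2* enter only with IRI. Such sums, here and below, add different assays, whose Ct values do not rank abundance. Innate lymphoid cells, mast cells and basophils are also known to make several of these 7 products. The 10 genes listed as products of ILC1s and NK cells were *Ifng*, *Tnf*, *Tnfsf10*, *Fasl*, *Csf2*, *Xcl1*, *Ccl3*, *Ccl4*, *Ccl5* and *Il2*. Of these, 5 were at least 2-fold higher, beside 38.7% of all genes, and 5 were between the thresholds. *Il2* is among the 5 higher only through detection in the IRI pool, so that no median is given. The summed level of the 10 genes was 4.95 per 1000 of the reference level without and 12.6 with IRI. *Tnfsf10* (2.33 and 6.51) and *Csf2* (0.102 and 2.35) made up most of the difference. Among the 10 genes, the chemokine *Ccl4* (MIP-1β) had a Ct of 27.6 without and 26.46 with IRI, a 2.20-fold higher level. *Ccl3* (MIP-1α) was at 26.91 and 26.87, whereas *Ccl5* (RANTES) was 1.40-fold and *Xcl1* (lymphotactin) 1.71-fold higher. Macrophages and other cells make several of these products as well.

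Of the type 2 cytokines, *Il5* and *Il9* were higher. *Il5*, the growth factor of eosinophils, had a Ct of 30.76 without and 28.58 with IRI and was 4.53-fold higher. *Il9*, a cytokine of mast cells and ILC2s, had 31.69 and 30.01 and was 3.20-fold higher. *Il4* was 1.83-fold higher (30.66 and 29.79) and *Il13* 1.41-fold lower (32.79 and 33.29). These are late Ct values, and 4 of the 6 genes of the family had a log2 fold above 0, as did 61 of all 75.

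Of the 3 death ligands, all of the TNF superfamily, 2 were at least 2-fold higher, beside 38.7% of all genes. *Tnfsf10*, the gene for TRAIL, had a Ct of 24.42 without and 22.94 with IRI and was 2.79-fold higher. *Tnf* had 28.92 and 27.79, 2.19-fold higher, whereas *Fasl* was at 28.84 and 28.6, 1.18-fold higher. Of 6 factors of lymphoid tissue and lymphocyte survival, 4 passed 2-fold, against 38.7% of all genes, and all 6 log2 folds were above 0, as were 61 of all 75. *Lta*, which encodes lymphotoxin-α, had 31.85 and 30.38 and was 2.77-fold higher. Its partner *Ltb* was at 28.29 and 28.24. *Il7*, which stromal cells make for lymphocytes and ILCs, had 27.73 and 26.35 and was 2.60-fold higher, and *Tnfsf13b*, which encodes the B cell survival factor BAFF, had 27.7 and 26.56 and was 2.20-fold higher. *Cxcl13*, the chemokine of B cell follicles, had 23.71 and 22.66 and was 2.07-fold higher. The other chemokine of lymphoid tissue, *Ccl19*, was 1.82-fold higher (22.59 and 21.73).

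*Tnfsf11*, which encodes RANKL, was at the limit without IRI and had a Ct of 29.19 with IRI, at least 56.1-fold higher. *Tnfrsf11b*, the gene for its decoy receptor osteoprotegerin, was 1.69-fold higher (23.69 and 22.93). The gene for osteopontin, *Spp1*, a matrix protein of injured liver, had 19.74 and 18.71 and was 2.04-fold higher, as was *Cxcl12*. Both, with *Cxcl13*, fell short of 2-fold without *Actb* or without *Hsp90ab1*, *Tnf* did so without *Hsp90ab1*, and these 4 genes with *Ccl4* and *Tnfsf13b* did so with all 5 housekeeping genes. In the other 6 pools, *Tnfsf11* was between 29.18 and the limit.

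The BMP genes, which in liver are made largely by endothelium and stroma, had nearly the same Ct in both pools. *Bmp2* (21.69 and 21.57), *Bmp4* (23.58 and 23.43), *Bmp6* (23.42 and 23.36) and *Bmp7* (24.81 and 24.74) were 1.04-fold to 1.11-fold higher, less than the reference yardstick. *Tgfb2* had 26.29 without and 27.41 with IRI and was 2.17-fold lower, and without *Gapdh* among the references its log2 fold was -0.89. *Nodal*, a developmental TGF-β family gene, had 28.71 and 26.92 and was 3.46-fold higher. *Mstn* was at the limit in both pools. The chemokine *Cxcl12*, made by the same stromal and endothelial cells as the BMPs, had 18.42 and 17.39 and was 2.04-fold higher. The summed level of *Bmp2*, *Bmp4*, *Bmp6* and *Cxcl12*, listed as products of sinusoidal endothelium and stroma, was 174 per 1000 of the reference level without and 331 with IRI. *Cxcl12* (149 and 305) made up nearly all of the difference.

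Genes that liver and platelets express at rest were higher by less than 2-fold, apart from *Cxcl12*. The platelet chemokines *Pf4* and *Ppbp* were 1.68-fold and 1.53-fold higher, and *Thpo*, the growth factor of megakaryocytes, 1.34-fold. *Hc* was 1.95-fold, *Il16* 1.88-fold, *Vegfa* 1.71-fold, *Cxcl16* 1.47-fold, *Gpi1* 1.37-fold and *Mif* 1.31-fold higher. None of the 7 constitutive factors with a fold had a log2 fold below 0.39. The summed level of the hepatocyte products *Hc* and *Thpo* was 489 per 1000 of the reference level without and 945 with IRI, nearly all of it from *Hc* (479 and 931). These genes moved in the same direction as the array median, and the part of the hepatocyte share in the other folds was not tested.

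**Figure D2:**
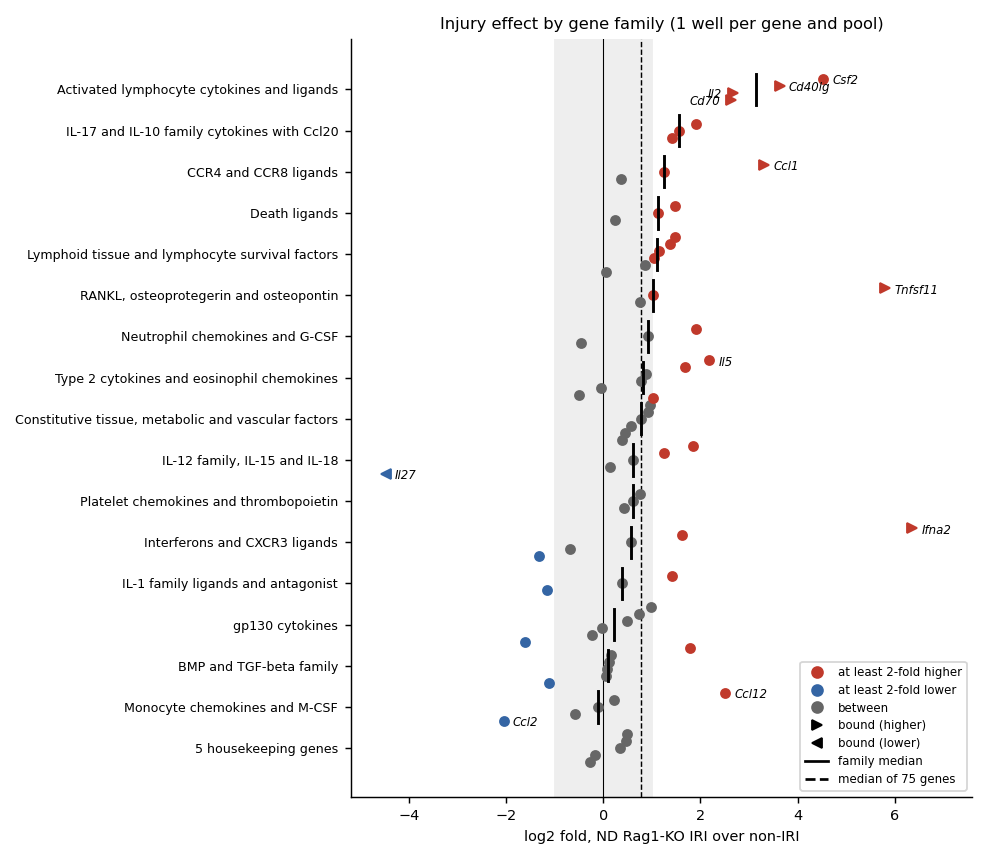
Log2 fold of ND Rag1-KO IRI over non-IRI liver for 71 genes with a fold or bound, grouped into 16 families and ordered by family median (black bars), with the 5 housekeeping genes at the bottom. Each point is 1 gene in 1 well per pool, and arrowheads are bounds. The grey band spans 2-fold in either direction and the dashed line is the median of 75 genes (0.77). Monocyte chemokines with M-CSF have the lowest median (-0.10). The top family's median rests on 3 bounds that exist through detection in the IRI pool. The medians of the families of *Ccl1*, *Tnfsf11*, *Ifna2* and *Il27* also include a bound, so that the order of these families is a description.

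Genes that lie next to each other on a chromosome did not always share their direction. In the RefSeq annotation, the CC chemokine genes on chromosome 11 run in the order *Ccl2*, *Ccl7*, *Ccl11*, *Ccl12* and *Ccl1*, and their log2 folds were -2.05, -0.59, 0.78, 2.51 and at least 3.31 in that order, a range of 5.36. *Cxcl10* and *Cxcl11* on chromosome 5 are direct neighbours and had log2 folds of -1.32 and 1.61. On chromosome 17, *Tnf* and *Lta* had 1.13 and 1.47 and the nearby *Ltb* 0.05. In the type 2 cytokine locus on chromosome 11, *Il4* and *Il13* had 0.87 and -0.50, *Il5* had 2.18 and *Csf2* had 4.53, while *Il3* was at the limit in both pools. The annotation places 17 genes between *Il5* and *Csf2*, so that *Csf2* is no close neighbour of the others. Of the clusters examined without such a gap, the CC chemokine cluster spanned the widest range.

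**Figure D3:**
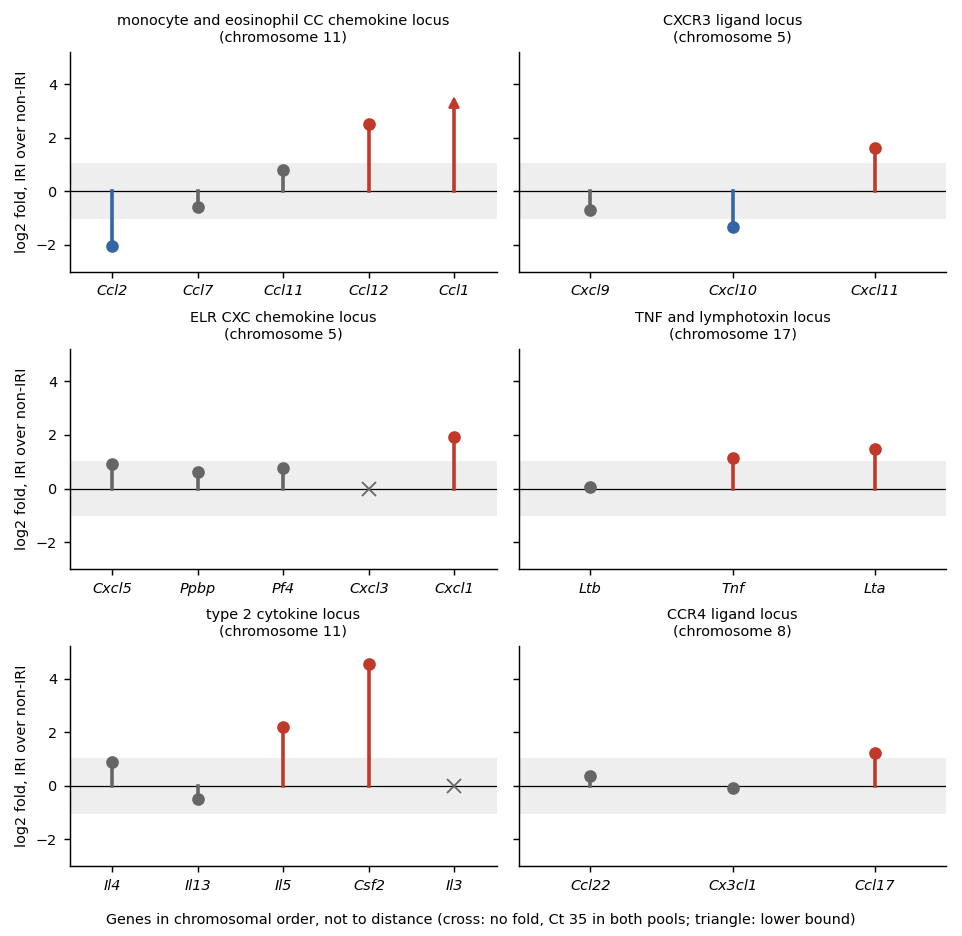
Log2 fold of ND Rag1-KO IRI over non-IRI liver for genes in 6 chromosomal clusters, drawn in chromosomal order and not to distance (17 annotated genes lie between *Il5* and *Csf2*). Red marks genes at least 2-fold higher, blue at least 2-fold lower and grey those between (grey band). Triangles are lower bounds and crosses genes at the limit in both pools. Along the CC chemokine cluster the values go from -2.05 (*Ccl2*) to 3.31 or more (*Ccl1*). The bound of *Ccl1* is 0.31 with a detection limit of Ct 32.

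The widest folds came from wells detected late. Of the 30 genes with a Ct below 26 without IRI, 7 were at least 2-fold higher and 3 lower, and their log2 folds lay between -2.05 and 1.91. Of the 27 genes from Ct 26 to 30, 11 were higher and 2 lower. Of the 12 genes from 30 up to the limit, 5 were higher and 1 lower. Late wells are also those for which 1 well per pool is least precise. Among early wells, *Ccl2* and *Cxcl1* had the widest folds.

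The position of the uninjured pool among the other uninjured livers of the series was also examined, with the same references. Of the 64 genes with a fold that were below the limit in all 4 non-IRI pools, ND Rag1-KO non-IRI had the lowest level for 33. This was so for 14 of 21 genes at least 2-fold higher, 2 of 6 lower and 17 of 37 between. The same non-IRI Ct enters the fold that sorts the genes into these groups. A low baseline therefore favours the higher group by the rule itself, and no conclusion is drawn from the difference. The level in ND Rag1-KO IRI liver exceeded that of all 4 non-IRI pools for 10 of the 29 higher genes. This was so for 3 of the 40 between and 13 of all 75 (17.3%). The 10 genes were *Cxcl1*, *Il17f*, *Il23a*, *Il9*, *Il10*, *Lta*, *Ifna2*, *Tnfsf11*, *Il2* and *Cd70*. Exceeding the baseline pool, 1 of the 4, is part of being called higher. The IRI level was below all 4 for *Cxcl10*, *Il1b*, *Il27* and *Tgfb2*, which are 4 of the 6 lower genes and 4 of all 75. For the other 19 higher genes, at least 1 uninjured pool of another diet or genotype had a level as high as the injured ND Rag1-KO pool. Among these genes were *Csf2*, *Ccl12* and *Tnfsf10*. For *Csf2* and *Cd40lg* the only such pool was ND Rag1-Tbet-DKO non-IRI. In that pool *Cd40lg* (Ct 11.44) and *Il3* (9.36) were detected earlier than *Actb* (14.69). The 4 uninjured pools differ in diet and genotype, so these positions are descriptions.

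The injury comparisons most like it were those of HFD Rag1-KO liver (high-fat diet, HFD) and of ND Rag1-Tbet-DKO liver, whose mice also lack T-bet. Neither shares a pool with the comparison described here, and both were computed with the same 3 references. In HFD Rag1-KO liver 7 of 77 genes (9.09%) were at least 2-fold higher and 13 (16.9%) lower, with a median log2 fold of -0.25. In ND Rag1-Tbet-DKO liver 41 of 80 genes (51.2%) were higher and 6 (7.50%) lower, with a median of 1.13. These counts too depended on the reference, and with *Nodal*, *Il9* and *Csf1* they were 3 higher and 45 lower on HFD and 19 and 36 without T-bet. With *B2m* and *Gusb* they were 18 and 7 in HFD Rag1-KO liver. The 6 genes lower in ND Rag1-Tbet-DKO liver included *Cd40lg* and *Il3*. Their Ct values in its non-IRI pool, 11.44 and 9.36, were lower than that of *Actb* (14.69). Of the 29 genes higher in ND Rag1-KO liver, 3 were also higher in HFD Rag1-KO liver (10.3% of the 29 and 42.9% of the 7) and 16 in ND Rag1-Tbet-DKO liver (55.2% of the 29 and 39.0% of the 41). *Csf2*, *Il9* and *Spp1* were at least 2-fold higher in all 3, but *Spp1* in ND Rag1-KO liver fell short of it without *Actb* (log2 fold 0.94), without *Hsp90ab1* (0.89) and with all 5 housekeeping genes (0.86). *Csf2* was 23.1-fold higher in ND Rag1-KO, 8.34-fold in HFD Rag1-KO and 2.32-fold in ND Rag1-Tbet-DKO liver. Its Ct without IRI was 28.94, 26.44 and 19.59 in that order. *Il9* was 3.20-fold, 6.32-fold and 5.38-fold higher, and *Spp1* 2.04-fold, 2.14-fold and 3.52-fold. None of the 6 lower genes was at least 2-fold lower in the other comparisons.

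Of the 29 higher genes, 13 were at least 2-fold higher in neither of the other comparisons. Over all genes with a fold, 9.09% were higher in HFD Rag1-KO and 51.2% in ND Rag1-Tbet-DKO liver. Being higher in neither was thus common on the array, and the count does not set these genes apart. The 13 were *Il15*, *Il7*, *Tnfsf10*, *Tnfsf13b*, *Cxcl11*, *Cxcl12*, *Cxcl13*, *Il5*, *Nodal*, *Ccl12*, *Ccl1*, *Cd40lg* and *Cd70*. The log2 fold of *Il7* was 1.38 in ND Rag1-KO liver, -0.48 in HFD Rag1-KO liver and -0.01 in ND Rag1-Tbet-DKO liver. *Cxcl11* had 1.61, -0.56 and -0.59, and *Cxcl12* had 1.03, -0.20 and -0.20. Of these 13 genes, *Ccl1* and *Cd70* had no fold in ND Rag1-Tbet-DKO and *Cd40lg* none in HFD Rag1-KO liver. By contrast, *Cxcl5* had 0.91, 0.26 and 5.25, and *Ccl3* had 0.04, 0.05 and 3.50, so that these chemokines had their high values in ND Rag1-Tbet-DKO liver. With 1 pool per condition, none of these differences between comparisons could be tested.

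**Figure D4:**
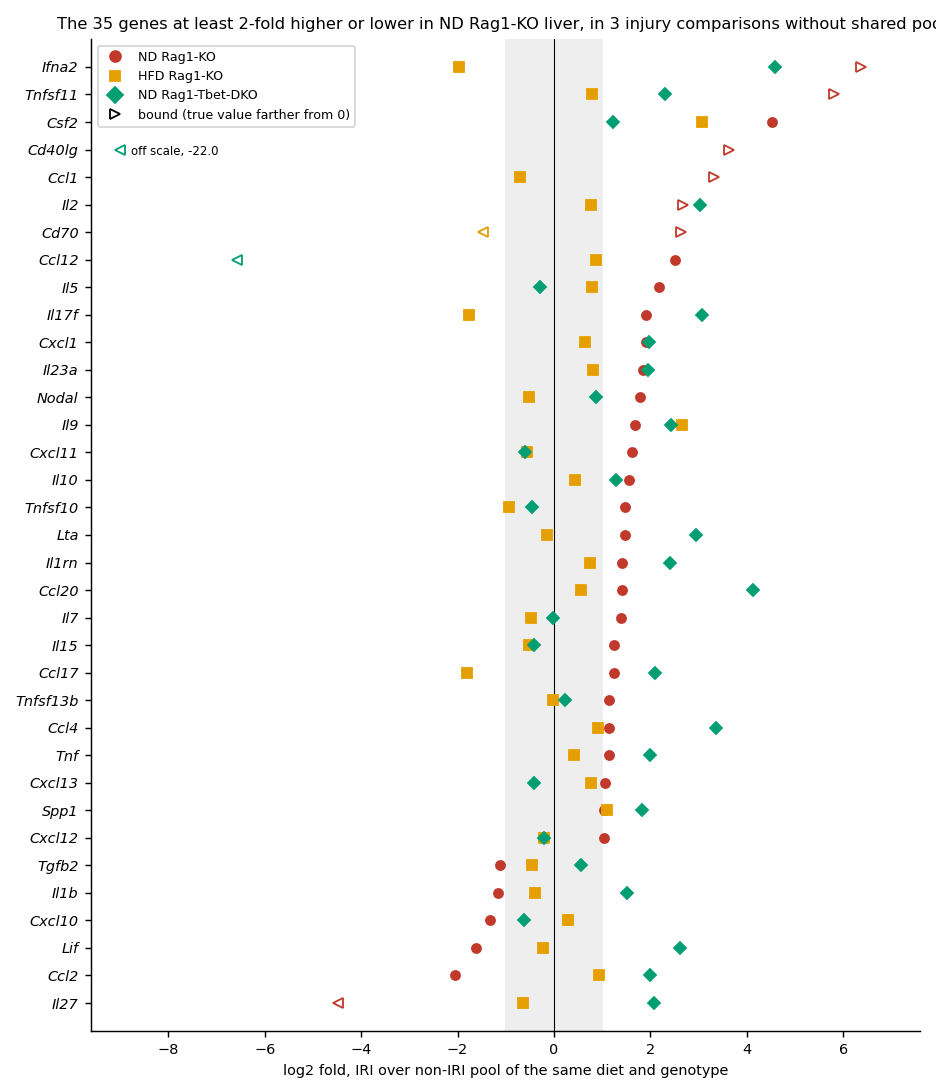
Log2 fold of IRI over the non-IRI pool of the same diet and genotype for the 35 genes at least 2-fold higher or lower in ND Rag1-KO liver (red circles), beside HFD Rag1-KO (orange squares) and ND Rag1-Tbet-DKO liver (green diamonds), all with *Actb*, *Hsp90ab1* and *Gapdh* as references. Each point rests on 1 well per pool, open triangles are bounds, the grey band spans 2-fold and 1 value is off scale; HFD Rag1-KO values lie mostly within the band, with *Csf2* (3.06), *Il9* (2.66) and *Spp1* (1.10) above it.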

How the data were processed

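Bulk liver was measured on an RT2 Profiler array of 84 cytokine and chemokine and 5 housekeeping genes. The authors pooled 1.25 µg of RNA from at least 3 livers per condition, ran 40 cycles with SYBR Green and deposited Ct values, listed as a score per well with no normalization and none above 35. They also deposited normalized values, a ratio (2^-ΔCt, rounded to 6 decimals, so imprecise for low genes), and a table of their own fold changes, which was not used. Groups came from the sample titles. From the Ct values, -ΔΔCt was computed against the references the methods name for Rag1-/- mice, with a limit of Ct 35 and a 2-fold threshold. No test was possible with 1 pool a side and 1 well a gene, and no depth applies beyond the Ct. All genes at least 2-fold higher or lower were named with their Ct values, every gene at the limit was named, and the others were given by fold, count or range. Families, motifs and members were chosen with earlier results of these data known, and the motif letters were set after counts for longer forms had been seen. Of 89 RefSeq identifiers, 88 were found in the GRCm38.p6 table, all with the same symbol. No build applies to the Ct values, so the table served for gene order and promoter sequences. A grouping is not reported here. The fold computation was tested on simulated data. For a single gene, an alternative was counted as a move if it shifted the log2 fold by over 0.40, the SD of the 3 references. The alternatives were 8 other references (raw Ct among them), a limit of Ct 32 or none, thresholds of 1.5-fold and 3-fold, and the deposited normalized values, and their use on the other comparisons was added after seeing the data. Values were computed in Python 3.11.15 with pandas 2.3.3 and numpy 2.4.6, and plots drawn with matplotlib 3.10.9.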

Additional observations from a re-analysis of the deposited data

Results flagged for a closer look

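For 10 genes, the injury effect in ND Rag1-KO liver and that in HFD Rag1-KO or ND Rag1-Tbet-DKO liver were both at least 2-fold and in opposite directions. These differences were not tested, since each condition is 1 pool and each value 1 well. Compared with HFD Rag1-KO liver, *Il17f* had a log2 fold of 1.91 on ND and -1.77 on HFD. *Ccl17* had 1.24 and -1.80. *Ifna2* had at least 6.36 on ND, from a well at the limit without IRI, and -1.97 on HFD, where its Ct was 31.21 without and 33.8 with IRI. *Cd70* had at least 2.63 on ND and -1.48 or less on HFD, in wells at Ct 32.37 (ND with IRI) and 32.9 (HFD without IRI), and was at the limit in the other 6 pools.
Compared with ND Rag1-Tbet-DKO liver, *Ccl2* had a log2 fold of -2.05 in ND Rag1-KO and 2.00 in ND Rag1-Tbet-DKO liver. *Il1b* had -1.16 and 1.52, and *Lif* had -1.61 and 2.62. *Il27* had -4.48 or less, resting on the well at the limit in ND Rag1-KO IRI liver, and 2.08. *Ccl12* had 2.51, and -6.57 or less in ND Rag1-Tbet-DKO liver, where its Ct was 26.86 without and at the limit with IRI. *Cd40lg* had at least 3.63, and -22.0 or less in ND Rag1-Tbet-DKO liver, from a Ct of 11.44 in the non-IRI pool, which is lower than that of *Actb* there (14.69) while *Cd40lg* was at the limit in 5 pools.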

How the results depend on the processing

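No paired analysis was possible because each group is 1 pool and no test was run. The main counts were 29 higher and 6 lower. They were 29 and 6 with raw Ct, with no detection limit and with the deposited normalized values, and 25 and 6 with a limit of Ct 32. Raw Ct could not change the counts, since the mean reference Ct was equal in both pools. Nor could the lack of a limit, since no Ct was above 35. Counts higher and lower were 26 and 6 without *Actb*, 25 and 6 without *Hsp90ab1*, 38 and 4 without *Gapdh*, 23 and 6 with all 5 housekeeping genes, 18 and 8 with *B2m* and *Gusb*, 14 and 10 with the median Ct, and 8 and 22 with *Nodal*, *Il9* and *Csf1*. At thresholds of 1.5-fold and 3-fold they were 43 and 8, and 15 and 3. The median log2 fold of 0.77 became 0.36 with *B2m* and *Gusb*, 0.12 with the median Ct and -0.46 with *Nodal*, *Il9* and *Csf1*, a shift shared by all genes. In the last set, *Nodal* (1.79) and *Il9* (1.68) were themselves at least 2-fold higher under the main references. That set turned 6 of the 35 genes at least 2-fold higher or lower. They were *Ccl4* (-0.09), *Cxcl12* (-0.20), *Cxcl13* (-0.18), *Spp1* (-0.20), *Tnf* (-0.10) and *Tnfsf13b* (-0.09). The other 29 kept their sign under every alternative that gave a value.
In HFD Rag1-KO liver (7 and 13), counts higher and lower were 11 and 10 with 5 housekeeping genes, 18 and 7 with *B2m* and *Gusb*, 3 and 45 with *Nodal*, *Il9* and *Csf1*, 4 and 33 with raw Ct, 17 and 22 at 1.5-fold and 4 and 7 at 3-fold. In ND Rag1-Tbet-DKO liver (41 and 6) they were 21 and 35 with the median Ct, 19 and 36 with *Nodal*, *Il9* and *Csf1*, 18 and 38 with raw Ct, 42 and 13 at 1.5-fold, 40 and 9 without *Gapdh*, and 19 and 35 with the deposited values, which rest on other references there. Wells near Ct 35 limit the bounds.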
